A study of Mus musculus with 6 samples.

Results

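The genes described here are 10 transcripts by which retinal ganglion cells are recognised: Rbpms, Pou4f1, Pou4f2, Pou4f3, Slc17a6, Nefl, Nefm, Nefh, Sncg and Thy1. They were chosen by symbol from the 25124 gene models of a count table of whole mouse retina, where all 10 were found, and all 10 had enough counts to be tested. Poly-A RNA was sequenced from retinas of C57BL/6J mice at 4 months of age, in 3 libraries labelled Elovl2(C234W) and 3 libraries labelled wild type. C234W is an amino acid substitution in Elovl2, an elongase of very long polyunsaturated fatty acids, including precursors of docosahexaenoic acid. The comparison asks whether ganglion cell transcripts differ between retinas with the substitution and retinas without it. The labels give neither the sex of the mice nor whether the substitution was on both alleles, and nothing in them states that the libraries are from different animals. The p-values therefore cover the spread among the 6 libraries and no more.

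Ganglion cells are the output neurons of the retina, and their axons form the optic nerve. Their identity is set up by POU-homeodomain transcription factors of the Pou4f (Brn3) family, acting with LIM-homeodomain factors such as Isl1. They signal with glutamate, loaded into vesicles by the transporter VGLUT2, and their long axons are filled with neurofilaments built from light, medium and heavy chains. Ganglion cells are a small minority of retinal cells, so in whole-retina RNA fewer ganglion cells and less of a transcript per cell cannot be told apart.

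The C234W libraries are FS3A, FS3B and FS5A, and the wild-type libraries are WT1A, WT2A and WT2B. The prefix FS is not explained in the labels, and these libraries were taken as C234W because the header of the table names 3 wild-type and 3 C234W inputs. Counts in genes ran from 15804646 to 19298613 per C234W library and from 14184093 to 18710329 per wild-type library. WT2A and WT2B share a number in their names and were by far the most alike pair, with a chi-square of 9.97 per degree of freedom over genes, against 30.6 to 112 in all other pairs. WT1A stood apart from both, with summed counts of 12 rod markers at 165101 CPM (counts scaled to a common library size), against 106583 in WT2A and 112757 in WT2B, so results are given with and without WT1A. FS3A and FS3B also share a number, but their chi-square was 47.65 per degree of freedom, above the 30.6 of FS3A and FS5A. Elovl2 itself had 82.0, 90.1 and 116 CPM in FS3A, FS3B and FS5A, against 142, 138 and 136 CPM in WT1A, WT2A and WT2B, which does not check the labels, since a substitution need not alter the transcript level. Its log2 fold change was -0.53 (SE 0.17, edgeR adjusted p = 0.0991).

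Of the members, 4 lie on chromosome 14 of mm10. Nefl (68083863 to 68089096, plus strand) and Nefm (68119545 to 68125004, minus strand) are neighbours on chromosome 14, 30448 bases apart and facing each other with their 3' ends. In GENCODE M21 a longer Nefm record overlaps Nefl on the opposite strand, and the counting used strand. Pou4f1 (104462325 to 104467999, minus strand, 3 exons) and Sncg (34370274 to 34374669, minus strand, 5 exons) are on the same chromosome. Rbpms (33782644 to 33929863, minus strand, 9 exons) and Pou4f2 (78433009 to 78436647, minus strand, 2 exons) are on chromosome 8, Slc17a6 (51621830 to 51671126, plus strand, 12 exons) on chromosome 7, Thy1 (44043384 to 44048579, plus strand, 4 exons) on chromosome 9 and Nefh (4938756 to 4948064, minus strand, 4 exons) on chromosome 11.

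The start regions of Pou4f1, Pou4f2 and Sncg are shown because these 3 genes had the lowest log2 fold changes of the group and were the ones that passed the test when WT1A was left out. Each runs 5' to 3' on the minus strand, from 250 bases before to 50 bases after the start of transcription (RefSeq, GRCm38.p6, the assembly of mm10), and each start is that of the counted gene model. Capitals mark matches on either strand to GGGCGG (a GC box), CAGCTG (an E-box, the kind of site bound by basic helix-loop-helix factors), ATTAAT (the core letters of a POU4 site) and TATAAA (the box bound by the TATA-binding protein). The windows are chr14:104467950-104468249, chr8:78436598-78436897 and chr14:34374620-34374919.
Pou4f1: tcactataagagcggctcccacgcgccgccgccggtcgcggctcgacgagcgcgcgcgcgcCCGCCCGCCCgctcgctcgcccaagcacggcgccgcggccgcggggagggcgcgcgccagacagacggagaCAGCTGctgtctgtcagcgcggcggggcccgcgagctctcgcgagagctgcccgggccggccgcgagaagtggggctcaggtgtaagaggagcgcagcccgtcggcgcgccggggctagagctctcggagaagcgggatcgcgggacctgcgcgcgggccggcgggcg
Pou4f2: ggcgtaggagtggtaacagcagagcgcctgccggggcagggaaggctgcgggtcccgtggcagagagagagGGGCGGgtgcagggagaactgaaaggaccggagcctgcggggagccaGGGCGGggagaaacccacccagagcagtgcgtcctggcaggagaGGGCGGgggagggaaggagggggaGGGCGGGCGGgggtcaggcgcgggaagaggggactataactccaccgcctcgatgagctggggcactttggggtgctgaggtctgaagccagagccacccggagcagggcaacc
Sncg: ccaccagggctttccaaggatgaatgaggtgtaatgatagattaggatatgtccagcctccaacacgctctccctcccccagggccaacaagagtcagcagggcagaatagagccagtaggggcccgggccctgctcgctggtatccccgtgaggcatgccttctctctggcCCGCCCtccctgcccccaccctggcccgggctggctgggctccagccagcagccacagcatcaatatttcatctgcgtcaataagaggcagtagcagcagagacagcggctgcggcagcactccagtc
The Pou4f1 window is 78.3% G and C, with a pair of overlapping GC boxes starting 189 and 185 bases before the start and an E-box starting 118 bases before it. The Pou4f2 window (69.7% G and C) holds 5 GC boxes between 179 and 60 bases before the start, the nearest pair overlapping. The Sncg window (61.3% G and C) holds 1 GC box, at 78 bases. Neither ATTAAT nor TATAAA occurs in these windows. Over 32851 RefSeq promoter windows of the same length, 35.7% hold GGGCGG, 16.3% CAGCTG, 13.6% TATAAA and 4.75% ATTAAT. The window of Slc17a6 at its counted start also holds a GC box, at 36 bases before the start. Its other promoter window, which is not that of the counted model, holds 1 ATTAAT match. The windows of the remaining members are not described here, so these motifs are not a survey of the group.

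None of the 10 ganglion cell genes passed the test between genotypes. In 9 of 10 the log2 fold change was negative, against 48.1% of all genes tested, but in 9 of 10 the libraries of the genotypes overlapped. Most members were high in WT2A, WT2B and FS3B and low in WT1A, FS3A and FS5A. The Pou4f1 and Pou4f2 transcription factors and Sncg had the lowest C234W to wild-type ratios, and Nefl, Pou4f3 and, within C234W, Nefh departed from that library pattern. In FS3B Pou4f1 was near its own mean and not high. By edgeR's quasi-likelihood test with Benjamini-Hochberg adjustment over all 14685 genes tested, 0 of 10 passed an adjusted p of 0.05, where 1.82% of all genes did and 1.53% were called lower. At an unadjusted p under 0.05 there was 1 member, against 25.9% of all genes, and DESeq2 and limma-voom each called 0 members. DESeq2 called 11.9% of all genes, 7.24% lower, and limma-voom called 1.63%, 1.4% lower. The groups did not overlap for 1 of 10 members, which was lower in C234W, against 29.1% of all genes tested in either direction and 16.4% lower. In 6 of 10 members all C234W libraries were below both WT2A and WT2B, against 26.7% of all genes.

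The Pou4f transcription factors are given first. Pou4f1 (Brn3a), found in most ganglion cell types, had 20.7, 28.9 and 20.4 CPM in C234W libraries FS3A, FS3B and FS5A, against 17.4, 61.5 and 53.9 CPM in wild-type libraries WT1A, WT2A and WT2B. Pou4f2 (Brn3b), which ganglion cells need for their differentiation and survival, had 8.65, 11.9 and 5.24 CPM in the C234W libraries, against 7.50, 18.6 and 21.8 CPM in the wild-type libraries. For both genes WT2A and WT2B stood above all 3 C234W libraries, while WT1A lay among or below them, so the groups overlapped. The log2 fold change of Pou4f1 was -0.92 (SE 0.40, 95% interval -1.82 to -0.02, adjusted p = 0.185) and that of Pou4f2 was -0.88 (SE 0.41, 95% interval -1.81 to 0.04, adjusted p = 0.209). Within wild type the highest Pou4f1 value was 3.54 times the lowest, against 1.42 times within C234W, so the spread of this gene sat in the wild-type group.

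Pou4f3 (Brn3c), which marks a smaller set of ganglion cells and is also needed by hair cells of the inner ear, lies on chromosome 18 (42394597 to 42396093, plus strand, 2 exons) and was the rarest member. It had 1.09, 1.75 and 0.91 CPM in the C234W libraries, against 1.39, 1.18 and 0.96 CPM in the wild-type libraries, which is 15 to 37 counts per C234W library and 13 to 22.5 per wild-type library. Its log2 fold change was 0.11 (SE 0.40, 95% interval -0.80 to 1.02, adjusted p = 0.888). These few counts limit what can be detected, and the interval covers changes of either sign. It did not share the library order of the other Pou4f genes: its highest wild-type value was in WT1A.

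Rbpms encodes an RNA-binding protein found in nearly all mouse ganglion cells and, outside neurons, in smooth muscle. It had 34.7, 41.5 and 26.5 CPM in FS3A, FS3B and FS5A, against 23.5, 50.8 and 42.4 CPM in WT1A, WT2A and WT2B. The wild-type values thus spanned those of C234W on both sides, and the log2 fold change was -0.18 (SE 0.28, 95% interval -0.83 to 0.46, adjusted p = 0.718). Slc17a6, which encodes VGLUT2, was the most uneven gene within C234W, with 21.2, 71.3 and 29.3 CPM, against 22.2, 55.1 and 61.1 CPM in wild type. Its highest C234W library, FS3B, was 3.36 times its lowest, FS3A, and exceeded every wild-type library. The log2 fold change of Slc17a6 was -0.18 (SE 0.51, 95% interval -1.36 to 1.00, adjusted p = 0.855).

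**Figure D1:**
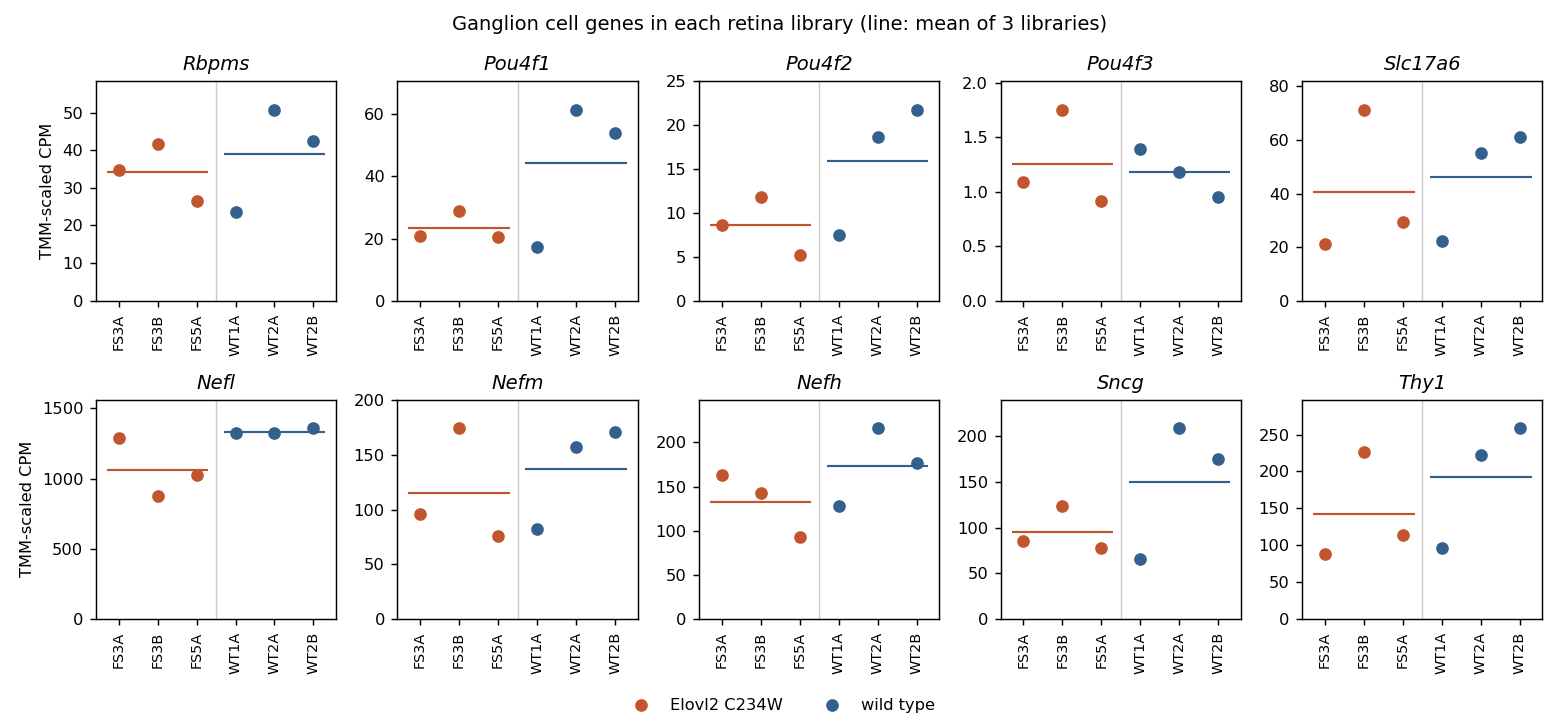
TMM-scaled CPM of the 10 ganglion cell genes, 1 panel a gene with its own linear axis from 0, in the 3 C234W libraries (orange, left) and the 3 wild-type libraries (blue, right). Points are libraries and lines are group means. Only Nefl has groups that do not overlap, and WT1A is the lowest wild-type library in 8 of the 10 panels.

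The neurofilament chains make up the axonal cytoskeleton among the members. Nefl, the light chain that forms the core of the filament, had 1288, 878 and 1026 CPM in FS3A, FS3B and FS5A, against 1323, 1323 and 1360 CPM in WT1A, WT2A and WT2B. Every C234W library was below every wild-type library, and the wild-type libraries differed by a factor of only 1.03. The log2 fold change of Nefl was -0.33 (SE 0.19, 95% interval -0.75 to 0.09, adjusted p = 0.290), so it did not pass. Nefm, the medium chain, had 96.4, 175 and 75.8 CPM in C234W, against 82.8, 157 and 171 CPM in wild type. Nefh, the heavy chain, had 163, 143 and 93.1 CPM in C234W, against 129, 216 and 177 CPM in wild type. Both overlapped, with FS3B the highest of all libraries for Nefm and WT2A the highest for Nefh. The log2 fold changes were -0.24 (SE 0.34, adjusted p = 0.688) for Nefm and -0.39 (SE 0.25, adjusted p = 0.352) for Nefh.

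The chains did not keep a fixed proportion. Per base of transcript, the level of Nefm relative to Nefl was 0.0783, 0.208 and 0.0773 in FS3A, FS3B and FS5A, against 0.0654, 0.124 and 0.131 in WT1A, WT2A and WT2B. FS3B, with the lowest Nefl and the highest Nefm, had the highest ratio, and the ratios of the genotypes overlapped. Nefl and Nefm are neighbours on chromosome 14, yet their library orders differed.

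Sncg encodes gamma-synuclein, abundant in ganglion cell bodies and axons, and Thy1 a surface glycoprotein long used to isolate ganglion cells, though other neurons and T cells carry it too. Sncg had 85.2, 124 and 77.8 CPM in C234W, against 66.2, 208 and 175 CPM in wild type. Thy1 had 88.9, 226 and 114 CPM in C234W, against 96.8, 223 and 259 CPM in wild type. In both, WT1A was close to the low C234W libraries. For Sncg WT2A and WT2B stood above all C234W libraries, whereas for Thy1 FS3B reached the level of WT2A. The log2 fold change was -0.65 (SE 0.37, 95% interval -1.49 to 0.19, adjusted p = 0.294) for Sncg and -0.43 (SE 0.42, 95% interval -1.39 to 0.53, adjusted p = 0.544) for Thy1.

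Levels between genes were compared per kilobase of the counted transcript (RPKM, from TMM-scaled CPM). Over the 6 libraries the order was Nefl at 355 RPKM, Sncg at 169, Thy1 at 97.1, Nefm at 39.1, Nefh at 38.5, Rbpms at 14.3, Slc17a6 at 10.1, Pou4f1 at 8.91, Pou4f2 at 3.83 and Pou4f3 at 1.07 RPKM. Neighbours in that order that did not differ beyond their spread include Nefm (35.8 ± 16.2 RPKM in C234W and 42.4 ± 14.7 in wild type, SD, n = 3 each) and Nefh (33.4 ± 9.05 in C234W and 43.6 ± 11.0 in wild type). Slc17a6 (9.44 ± 6.25 RPKM in C234W and 10.7 ± 4.86 in wild type) and Rbpms (13.4 ± 2.94 in C234W and 15.2 ± 5.46 in wild type) also overlapped in their spread. Compared within each library, however, Slc17a6 was below Rbpms except in FS3B, with a ratio of 1.02 there and 0.364 to 0.856 elsewhere. Pou4f1 (6.15 ± 1.28 RPKM in C234W and 11.7 ± 6.22 in wild type) and Slc17a6 could not be ordered either, since Pou4f1 was the higher in wild type and the lower over all libraries.

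Relative to Rbpms, a marker of nearly all ganglion cells, members differed in how they followed the libraries. The per-length level of Pou4f1 was 0.402, 0.470 and 0.518 of that of Rbpms in FS3A, FS3B and FS5A, against 0.499, 0.818 and 0.858 in WT1A, WT2A and WT2B. For Sncg the ratio was 8.66, 10.5 and 10.3 in C234W, against 9.93, 14.5 and 14.6 in wild type. For Pou4f2 it was 0.199, 0.228 and 0.158 in C234W, against 0.255, 0.293 and 0.410 in wild type. In these 3 genes the ratio to Rbpms was highest in WT2A and WT2B, and for Pou4f1 and Sncg WT1A lay within the C234W range. For Slc17a6 the ratio was 0.364, 1.02 and 0.657 in C234W, against 0.560, 0.644 and 0.856 in wild type. For Thy1 it was 3.79, 8.06 and 6.33 in C234W, against 6.09, 6.50 and 9.03 in wild type. In both of these FS3B was above WT2A and the groups overlapped. Smooth muscle also expresses Rbpms, so its level in whole retina is not that of ganglion cells alone. The ratios were not tested.

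The library pattern was described by centring the log2(CPM + 0.5) of each gene on its own mean over the 6 libraries. Averaged over the 10 members, the deviation was -0.30, 0.24 and -0.51 in FS3A, FS3B and FS5A, against -0.45, 0.53 and 0.49 in WT1A, WT2A and WT2B. WT1A was below both WT2A and WT2B in 8 of 10 members, where 40.9% of all tested genes showed that order. FS3B was the highest C234W library in 8 of 10 members (34.5% of all genes) and FS5A the lowest in 7 of 10 (33.7% of all genes). In 9 of 10 members FS3B exceeded WT1A, against 47.2% of all genes. The spread of log2 values was larger within wild type than within C234W for 5 of 10 members, against 52.9% of all genes. The summed CPM of the members without Nefl was 520, 823 and 443 in FS3A, FS3B and FS5A, against 446, 992 and 961 in WT1A, WT2A and WT2B.

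**Figure D2:**
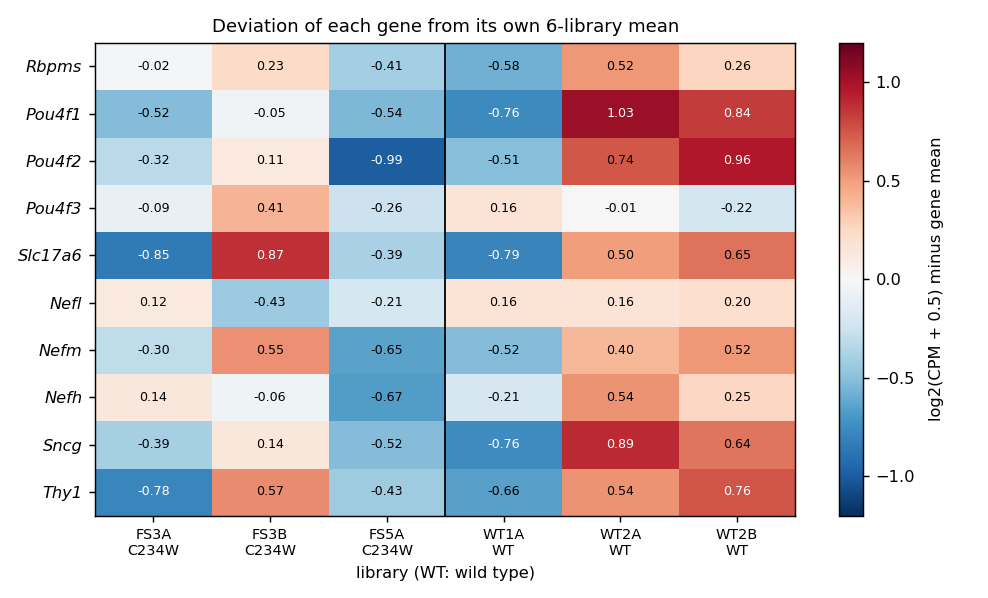
Deviation of each ganglion cell gene (rows) from its own mean in each library (columns, C234W left of the black line and wild type right of it), as log2(CPM + 0.5) minus the gene mean. Most rows are blue in FS3A, FS5A and WT1A and red in FS3B, WT2A and WT2B. Nefl, Pou4f3 and, in FS3A and FS3B, Nefh depart from this, as does Pou4f1 in FS3B (-0.045).

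Members were ranked by how far each lay from the average of the other 9, as the root mean square difference of the centred profiles over the 6 libraries. Nefm (0.172), Rbpms (0.179) and Sncg (0.235) were the closest. Nefl (0.518) and Pou4f3 (0.516) were the farthest, Nefl with little variation within wild type and Pou4f3 with few counts. Among 11475 other tested genes with a mean of at least 5 CPM, the 5 profiles closest to the average of the members were those of Chn1 (0.0352), Barhl2 (0.0496), Ina (0.0590), Rbfox3 (0.0623) and Cend1 (0.0642), where the median gene was at 0.502. Chn1 encodes a chimaerin, a regulator of Rac in axon guidance, and Cend1 a neuronal protein of cell cycle exit. Ina encodes alpha-internexin, a further neuronal intermediate filament, and Rbfox3 encodes the neuronal nuclear antigen NeuN. Barhl2 is a homeodomain factor of amacrine and ganglion cells. Ina had 84.5, 127 and 77.0 CPM in FS3A, FS3B and FS5A, against 85.0, 168 and 161 CPM in WT1A, WT2A and WT2B. The log2 fold changes of these 5 genes lay between -0.52 and -0.36 and none passed (adjusted p from 0.270 to 0.439). The genes were picked for likeness, so their order is a description.

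Leaving out WT1A changed the calls. Of the 10 members, 3 passed without it, all lower in C234W, where 9.55% of all 14988 genes then tested were called lower and 18.5% in either direction. They were Pou4f1 (log2 fold change -1.30, SE 0.19, adjusted p = 0.0126), Pou4f2 (-1.21, SE 0.31, adjusted p = 0.0364) and Sncg (-1.0, SE 0.21, adjusted p = 0.0223). The remaining wild-type libraries are then WT2A and WT2B, the most alike pair of the study. After summing the same-numbered libraries, leaving 2 of each genotype, 0 of 10 members passed, where 0 of all 15189 genes then tested did. The log2 fold changes of Pou4f1, Pou4f2 and Sncg were then -0.75, -0.82 and -0.52. Over the 10 members the median log2 fold change was -0.36 with all libraries and -0.53 without WT1A, against a median of 0.02 over all genes tested.

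The log2 fold change varied with transcript length over all genes, which touches these values. With genes split by length into 5 equal sets, the median log2 fold change was -0.34 in the set of at most 1671 bases and 0.28 in the set of the longest. Sncg, at 725 bases, and Pou4f3, at 1142 bases, are the short members, and the others run from 1729 bases (Thy1) to 4306 bases (Slc17a6). With the trend on length removed from each library, 1 of all 14685 genes tested passed. The log2 fold change of Sncg was then -0.15 (SE 0.36, adjusted p = 0.851). Pou4f1 (-1.03) and Pou4f2 (-0.95) were at least as low as before and still did not pass (adjusted p = 0.208 and 0.248). With the trend removed and WT1A left out, a setting chosen after seeing the data, 2 of 10 passed, Pou4f1 (-1.42, adjusted p = 0.0168) and Pou4f2 (-1.29, adjusted p = 0.0383). In that setting 6.01% of all genes were called lower, and Sncg did not pass (-0.48, adjusted p = 0.212).

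**Figure D3:**
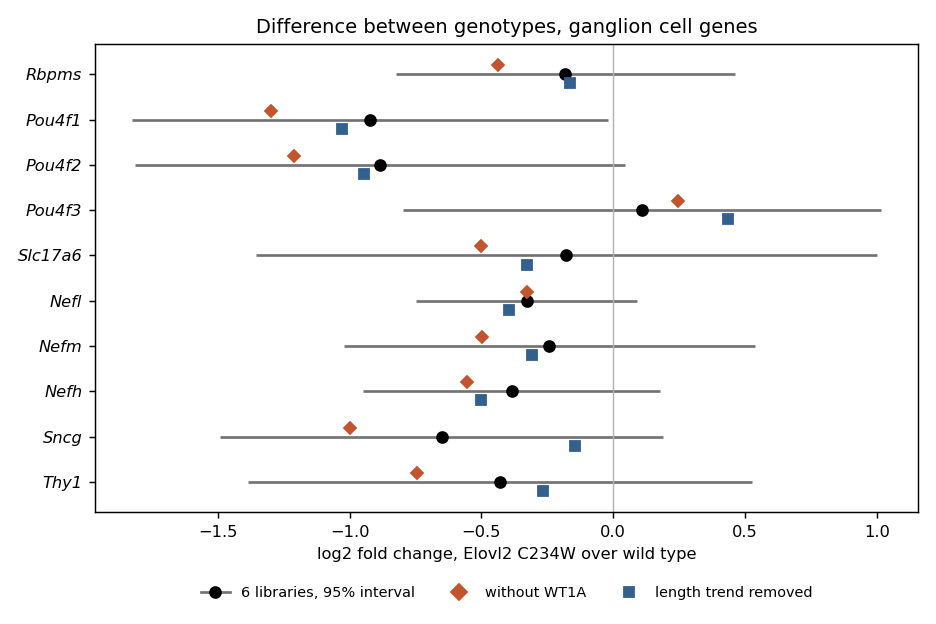
Log2 fold change of the 10 ganglion cell genes, C234W over wild type, with all 6 libraries (black, 95% interval from edgeR's standard error), without WT1A (orange) and with the trend on transcript length removed (blue). Values below 0 are lower in C234W, and the Sncg value is -0.15 with the length trend removed, against -0.65 without that step.

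Other transcription factors of the ganglion cell programme were, on average, low in WT1A, FS3A and FS5A too. Of 18 listed, 17 were tested and Atoh7, the factor that makes progenitors able to form ganglion cells, was too rare, below 1 CPM in every library. In edgeR 0 of 17 passed, 2 were at an unadjusted p under 0.05 and DESeq2 called 1, against 1.82%, 25.9% and 11.9% of all genes tested. Isl1, the LIM-homeodomain partner of Pou4f2 that bipolar cells also express, had 49.8, 56.3 and 48.5 CPM in C234W, against 31.6, 32.2 and 31.1 CPM in wild type. Its groups did not overlap, its direction was opposite to that of Pou4f1 and Pou4f2, and its log2 fold change of 0.70 (SE 0.15) missed the threshold (adjusted p = 0.0505). Isl1 is also among the 11 bipolar cell markers, of which 5 were at an unadjusted p under 0.05, all higher in C234W. The median log2 fold change of those 11 was 0.34, 3 were negative, and the groups did not overlap for 7. Over all genes tested, 25.9% were at that p in either direction, 48.1% were negative and 29.1% did not overlap. Foxp1 had 18.6, 22.6 and 22.9 CPM in C234W, against 21.4, 41.4 and 40.8 CPM in wild type (log2 fold change -0.69, SE 0.26, adjusted p = 0.143). Of the 17, 14 had a negative log2 fold change, against 48.1% of all genes, and the median was -0.32. Without WT1A 3 were called lower and 1 higher, where 9.55% of all genes were called lower and 18.5% in either direction.

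Further ganglion cell and subtype markers were measured for 22 genes, of which 0 passed, 1 was at an unadjusted p under 0.05 and DESeq2 called 0. The shares of all genes tested were 1.82%, 25.9% and 11.9%. Nrn1, the neurite outgrowth factor neuritin, had 45.0, 64.3 and 48.8 CPM in C234W, against 41.6, 119 and 104 CPM in wild type (log2 fold change -0.75, SE 0.34, adjusted p = 0.205). Penk, which encodes an opioid peptide precursor, had 11.1, 17.7 and 37.2 CPM in C234W, against 12.2, 7.43 and 13.7 CPM in wild type (log2 fold change 0.99, SE 0.42, adjusted p = 0.183). The median of the 22 was -0.20. Without WT1A 4 were called lower and 1 higher, against 9.55% of all genes called lower and 18.5% in either direction. Rbpms2, the paralog of Rbpms, had 31.1, 35.1 and 23.0 CPM in C234W, against 20.1, 63.0 and 51.2 CPM in wild type, the library order of Rbpms. Opn4, which encodes melanopsin of the intrinsically photosensitive ganglion cells, had 1.75, 6.07 and 3.05 CPM in C234W, against 2.92, 5.65 and 5.30 CPM in wild type.

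Of 23 axonal cytoskeleton and transport genes tested, 0 passed, 4 were at an unadjusted p under 0.05 (2 lower and 2 higher in C234W) and DESeq2 called 1. Over all genes tested these shares were 1.82%, 25.9% and 11.9%. The median log2 fold change was 0.10, against -0.10 with the length trend removed. Without WT1A 3 were called lower (Ina, Stmn1 and Stmn3) and 0 higher, where 9.55% of all genes were called lower. Stmn3 and Stmn1, stathmin-family regulators of microtubules, had the smallest p. Stmn3 had 133, 169 and 167 CPM in C234W, against 185, 297 and 313 CPM in wild type, without overlap (log2 fold change -0.76, SE 0.22, adjusted p = 0.0839). Stmn1 had 33.3, 36.7 and 22.1 CPM in C234W, against 25.2, 73.6 and 73.1 CPM in wild type (log2 fold change -0.90, SE 0.38, adjusted p = 0.174).

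Paralogs of Sncg and Slc17a6 were set beside them. Sncb, beta-synuclein, had 296, 375 and 299 CPM in C234W, against 462, 631 and 656 CPM in wild type. Slc17a7, which encodes VGLUT1 of photoreceptors and bipolar cells, had 2070, 2083 and 2554 CPM in C234W, against 4873, 3410 and 4063 CPM in wild type. Neither overlapped between groups, and both missed the threshold, with log2 fold changes of -0.85 (SE 0.19, adjusted p = 0.0547) for Sncb and -0.88 (SE 0.21, adjusted p = 0.0589) for Slc17a7. Of the 4 paralogs 0 passed, and these 2 were the ones at an unadjusted p under 0.05, while DESeq2 called 2. Over all genes tested, 25.9% were at that p, DESeq2 called 11.9%, and 29.1% did not overlap between groups. Without WT1A 2 were called lower and 0 higher, where 9.55% of all genes were called lower. The difference between a member and its paralog was not tested.

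Of 15 genes of the response to axon injury, all tested, 0 passed, 3 were at an unadjusted p under 0.05, all lower in C234W, and DESeq2 called 2. Over all genes tested, 25.9% were at that p, with 13.7% lower, and DESeq2 called 11.9%. Jun, a transcription factor induced when ganglion cell axons are cut, had 57.9, 56.4 and 45.4 CPM in C234W, against 72.9, 113 and 119 CPM in wild type (log2 fold change -0.93, SE 0.21, adjusted p = 0.0547). Ddit3, which encodes the stress factor CHOP, had 82.5, 60.0 and 56.3 CPM in C234W, against 89.7, 106 and 114 CPM in wild type (log2 fold change -0.64, SE 0.19, adjusted p = 0.0867). Jun and Ddit3 were the 2 of the 15 without overlap, against 29.1% of all genes tested in either direction and 16.4% lower. Both are expressed by many retinal cells. The median of the 15 was -0.25, and -0.01 with the length trend removed. Without WT1A 2 were called lower and 0 higher, where 9.55% of all genes were called lower.

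Of the markers of other cell types, those of amacrine cells had the library pattern of the ganglion cell genes. Those of horizontal cells had its signs, but with small deviations outside FS3A and FS3B. The 7 horizontal cell markers summed to 410, 516 and 431 CPM in FS3A, FS3B and FS5A, against 383, 511 and 534 CPM in WT1A, WT2A and WT2B. Their mean deviation was -0.22, 0.25 and -0.06 in the C234W libraries, against -0.09, 0.05 and 0.07 in the wild-type libraries. The 13 amacrine cell markers, from neurons that lie beside ganglion cells, summed to 1220, 2078 and 1328 CPM in FS3A, FS3B and FS5A, against 1067, 2048 and 2119 CPM in WT1A, WT2A and WT2B. FS3B, WT2A and WT2B were the high libraries. In edgeR 0 of the 13 passed and in DESeq2 0, while 1 was at an unadjusted p under 0.05. The smallest p belonged to the glycine transporter gene Slc6a9 (log2 fold change 0.56, adjusted p = 0.167) and to Th, tyrosine hydroxylase (-0.73, adjusted p = 0.225). The 12 rod markers summed to 73863, 70116 and 93065 CPM in C234W, against 165101, 106583 and 112757 CPM in wild type, and all 12 had a negative log2 fold change, with 1 past the threshold (Pde6g, log2 fold change -1.04, SE 0.21, adjusted p = 0.0491). Of the rod markers 6 were at an unadjusted p under 0.05, DESeq2 called 6, and the groups did not overlap for 6. Over all genes tested, 25.9% were at that p, DESeq2 called 11.9%, 29.1% did not overlap and 48.1% had a negative log2 fold change. WT1A, the highest library for rod markers, was low for ganglion cell genes, and FS3B, the lowest for rod markers, was high for them. FS3A and FS5A were low for both, and WT2A and WT2B were above the C234W libraries for summed rod markers and for 6 of the 10 ganglion cell genes. Without WT1A 2 of the 13 amacrine and 4 of the 12 rod markers were called lower and 0 higher, where 9.55% of all genes were called lower. The part of these shifts in the ganglion cell values was not tested.

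Of the remaining marker lists, 1 of 10 cone markers fell (Pde6h, log2 fold change -1.32, SE 0.22, adjusted p = 0.0469), and 0 of 7 horizontal cell, 11 bipolar cell, 10 Muller glia, 7 astrocyte, 8 microglia, 9 endothelial and 9 pericyte and smooth muscle markers passed in edgeR. DESeq2 called 3 of the cone markers, and 3 were at an unadjusted p under 0.05. In the other 7 lists, those at an unadjusted p under 0.05 were 5 bipolar, 3 Muller glia, 3 endothelial, 2 horizontal and 1 astrocyte marker, and 0 microglia or pericyte and smooth muscle markers. DESeq2 called 4 bipolar, 3 endothelial and 1 Muller glia marker, and 0 in the other 4 of these 7 lists. Over all genes tested, 25.9% were at an unadjusted p under 0.05 and DESeq2 called 11.9%. The smallest p in each list belonged to Prox1 (0.41, adjusted p = 0.125) and Calb1 (-0.71, adjusted p = 0.189) of horizontal cells, Isl1 and Trpm1 (1.18, adjusted p = 0.0595) of bipolar cells, and Rlbp1 (-1.02, adjusted p = 0.0547) and Apoe (-0.54, adjusted p = 0.134) of Muller glia, as log2 fold changes. In astrocytes they were Gfap (2.02, adjusted p = 0.142) and Gja1 (1.10, adjusted p = 0.196), in microglia P2ry12 (-1.10, adjusted p = 0.221) and Csf1r (-0.38, adjusted p = 0.426), and in endothelial cells Esam (1.01, adjusted p = 0.0504) and Pecam1 (0.68, adjusted p = 0.0780). In pericytes and smooth muscle they were Acta2 (-0.61, adjusted p = 0.222) and Rgs5 (0.58, adjusted p = 0.259). Pericyte and smooth muscle markers, from cells that also express Rbpms, summed to 141, 112 and 106 CPM in C234W, against 55.1, 121 and 78.5 CPM in wild type. Microglia markers summed to 38.9 to 62.5 CPM in C234W and 46.2 to 74.0 CPM in wild type. Optic nerve oligodendrocyte markers summed to 50.7 to 65.7 CPM in C234W and 68.5 to 83.5 CPM in wild type. Of those 9 markers 5 were too low to test, Olig2 was at 0 in every library, and 1 of the 4 tested fell (Ermn, log2 fold change -1.61, SE 0.30, adjusted p = 0.0469). None of the other lists had a marker at 0 in all libraries.

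**Figure D4:**
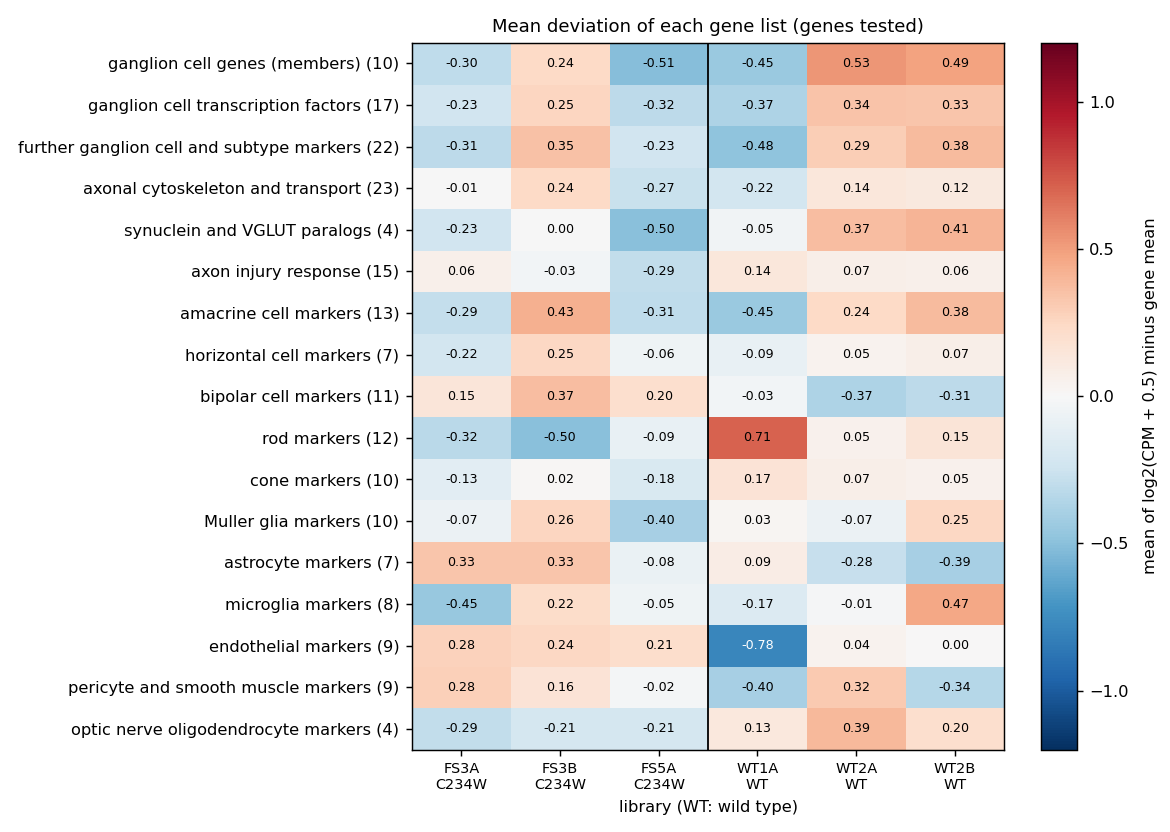
Mean deviation of each gene list (rows, with the number of genes tested) in each library (columns, C234W left of the black line and wild type right of it), as the mean of log2(CPM + 0.5) minus each gene's mean. Ganglion cell genes, ganglion cell transcription factors, further ganglion cell markers and amacrine cell markers are low in FS3A, FS5A and WT1A and high in FS3B, WT2A and WT2B. Horizontal cell markers and axonal cytoskeleton and transport genes have the same signs in each library. Rod markers are highest in WT1A at 0.71.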

How the data were processed

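Per the labels' protocols, strand-specific libraries were made from poly-A RNA of whole retina. Per the series' design text and the submitters' processing notes, the authors mapped reads to mm10 with STAR (2.7.8a) through HOMER (4.11). Per the file headers, the deposited values are unnormalized estimated counts of tags on exons of 1 isoform per locus. Rounding to whole numbers was needed, because 28.3 to 32.1% of the values in a library had a decimal. Of all tags, 65.8 to 74.4% were counted in genes. No sample column was left out (0). The columns carry no replicate number of the labels.

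Low genes were removed with filterByExpr, TMM gave the library scaling, and the genotypes were tested in edgeR (version 4.0.16 under R version 4.3.3) with its robust quasi-likelihood test, no covariate and Benjamini-Hochberg adjustment, with a threshold of 0.05. CPM are TMM-scaled. Alternatives were other scalings and filters, DESeq2 (1.42.0), limma-voom (3.58.1), a loess trend on transcript length removed from each library (span 0.3), summed libraries and leaving out each library. The scripts were tested on simulated data.

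Named were all members, Elovl2, in each further list the genes past the threshold or otherwise the 2 with the smallest p, and the 5 nearest profiles. Rbpms2, Opn4 and Atoh7 were named after their values were seen, as were the genes described under other observations. Members, lists, tests and alternatives were chosen with earlier results of these data known. Genomic positions are those of the deposited table, and exon numbers are from GENCODE M21.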

Additional observations from a re-analysis of the deposited data

How the results depend on the processing

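The number of genes called over the whole table, 267 (43 higher and 224 lower in C234W), depended on the setting. It was 1754 (691 higher and 1063 lower) with DESeq2, 1 (1 higher and 0 lower) with total-count scaling, 1 (1 higher and 0 lower) with the length trend removed, 0 after summing same-numbered libraries, and 1628 with the length trend removed and WT1A left out, while leaving out single libraries gave 0 to 2771. At an unadjusted p under 0.05 these settings gave 3955, 4417, 2898, 1847 and 4694 genes. The number of ganglion cell genes called was 0 with all 6 libraries, 0 to 3 when single libraries were left out, and 2 with the length trend removed and WT1A left out. The 3 calls came without WT1A, a setting that called 2771 of all genes. Leaving out any other library gave 0 members, in settings that called only 0 to 7 of all genes.

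Of 170 values of the members under the alternatives, 159 kept their direction and side of the threshold, 5 passed the threshold in the same direction and 6 changed sign, and no call changed sign. With single libraries left out, the log2 fold change ran from -0.87 to 0.13 for Slc17a6, from -0.44 to 0.064 for Rbpms and from -0.23 to 0.28 for Pou4f3. It stayed negative for the other 7 members, and the cause of the sign changes was not tested. Under total-count scaling the median gene stood at a log2 fold change of 0.20, against 0.02 with TMM, and the direction of each member was kept. No paired analysis was possible because the columns carry no replicate numbers of the labels. With 3 libraries a genotype, of which pairs share a name number, differences of the size seen in most members could not be told from the spread.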

Other observations

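Single genes from the injury, astrocyte and transcription factor lists had their highest value in FS3A. The 4 described here were chosen after their values were seen, none passed the test, and other genes of the same lists did not share the pattern. Bcl2l11, which encodes the pro-apoptotic protein BIM, had 19.3, 17.9 and 38.7 CPM in FS3A, FS3B and FS5A, against 29.2, 48.0 and 51.9 CPM in WT1A, WT2A and WT2B. Atf3, a transcription factor induced by axon injury, had 41.1, 22.1 and 22.6 CPM in C234W, against 55.1, 22.6 and 31.6 CPM in wild type, so its highest library was WT1A. Gfap, the intermediate filament of astrocytes and reactive Muller glia, had 248, 99.4 and 26.5 CPM in FS3A, FS3B and FS5A, against 46.8, 25.3 and 20.4 CPM in WT1A, WT2A and WT2B (log2 fold change 2.02, SE 0.72, adjusted p = 0.142). Sprr1a, induced in neurons after axon injury, had 6.24, 0.996 and 0 CPM in the same C234W libraries, against 2.92, 0 and 0 CPM in wild type, so it was detected in 2 C234W libraries and in 1 wild-type library. Crym, which encodes a thyroid hormone binding protein, had 163, 92.5 and 45.4 CPM in C234W, against 70.8, 61.3 and 61.8 CPM in wild type (log2 fold change 0.63, SE 0.37, adjusted p = 0.305). Sox11, a transcription factor of growing axons, had 2.63, 1.71 and 1.04 CPM in C234W, against 0.996, 0.861 and 0.956 CPM in wild type, without overlap (log2 fold change 0.94, SE 0.44, adjusted p = 0.207). In each of Gfap, Sprr1a, Crym and Sox11 FS3A was the highest of the 6 libraries.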
